A study of Mus musculus with 8 samples.

Results

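Heat shock proteins and DNAJ proteins are the molecular chaperones and co-chaperones that keep other proteins folded, and their transcripts were examined here in kidney glomeruli of mice with and without *Cd151*. The genes were taken by symbol, as every probe whose listed gene begins with Hsp followed by a, b, c, d, e, h or a digit, or with Dnaj followed by a, b or c and a digit. *Hspg2*, which encodes the basement membrane proteoglycan perlecan, was left out. This gave 79 probes for 54 gene symbols, 24 of the heat shock kind and 30 of the DNAJ kind, of 25697 probes and 18120 symbols on the array. A total of 20 genes had more than 1 probe, and the probe with the highest mean over the 8 arrays is given for each gene unless another is named. Of the 24 heat shock symbols, *Hspa5bp1* (now *Tmem132a*), *Hspc171* (now *Tmem208*) and *Hspbap1* fitted the letters without naming a classical chaperone.

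The 8 arrays were of the Illumina MouseRef-8 v1.1 BeadChip type, 1 array per animal. RNA came from glomeruli of 4 *Cd151*+/+ and 4 *Cd151*-/- male mice of the FVB/N strain at 3 weeks of age. CD151 is a tetraspanin that holds laminin-binding integrins at the surface of podocytes, and the comparison asks which transcripts differ where the gene is missing throughout the animal. All 8 mice were separate animals of the same strain, sex and age, and all glomeruli were collected after perfusion with magnetic beads and a warm collagenase digestion, in both genotypes. Each of the 3 *Cd151* probes was detected in 4 of 4 *Cd151*+/+ mice and in 0 of 4 *Cd151*-/- mice, where detected means a detection p-value of 0.05 or lower.

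HSP70 proteins bind exposed hydrophobic stretches of unfolded proteins and release them in cycles of ATP hydrolysis. DNAJ proteins, also called HSP40, bring them their substrates and start that hydrolysis, HSP110 proteins exchange the nucleotide, HSP90 finishes the folding of kinases and receptors, small heat shock proteins hold unfolded proteins and the actin cytoskeleton, and the HSP60 chaperonin with its HSP10 lid folds proteins inside mitochondria. Many of the cytosolic members are induced by heat shock factor 1 (HSF1) under stress, which in podocytes has been studied for the actin-binding protein HSPB1.

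HSF1 binds heat shock elements, inverted repeats of the triplets GAA and TTC spaced by any pair of bases. The letters of 2 adjoining triplets, GAANNTTC or TTCNNGAA, were searched on both strands of the RefSeq promoter windows of GRCm38.p6, which run from 250 bases before to 50 bases after each gene start. Of the 54 genes 42 had a window, and these letters were found for 13 of them, in 15 of 59 windows (25.4%) against 15.1% of all 32851 windows. Elements of 3 alternating triplets, GAA, TTC and GAA or TTC, GAA and TTC with any pair of bases between triplets, which contain the shorter ones, were found for *Dnajb6*, *Hspd1*, *Hspe1* and *Hsp105*, in 10.2% of member windows against 0.603% of all windows. A match is a description of the letters and not of a bound site. The stretches below are shown because they carry such letters and because their genes are followed mouse by mouse in the results. All are bases upstream of the start, read 5′ to 3′ on the gene's strand, with the matching triplets in capitals: *Hspa1a* at chr17:34972157-34972356 on the minus strand (bases 200 to 1 before the start), *Hsp105* at chr5:149636337-149636486 on the minus strand (150 to 1), *Hspb1* at chr5:135887769-135887918 on the plus strand (150 to 1), *Dnajb6* at chr5:29735798-29735897 on the plus strand (100 to 1) and *Hspd1* at chr1:55088013-55088132 on the minus strand (200 to 81).
Hspa1a: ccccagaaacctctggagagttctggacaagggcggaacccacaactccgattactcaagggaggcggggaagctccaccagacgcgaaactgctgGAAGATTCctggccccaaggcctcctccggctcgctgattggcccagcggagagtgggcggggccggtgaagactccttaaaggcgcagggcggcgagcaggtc
Hsp105: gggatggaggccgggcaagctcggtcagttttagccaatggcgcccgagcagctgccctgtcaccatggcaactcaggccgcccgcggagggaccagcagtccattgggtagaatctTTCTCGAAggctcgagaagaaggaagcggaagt
Hspb1: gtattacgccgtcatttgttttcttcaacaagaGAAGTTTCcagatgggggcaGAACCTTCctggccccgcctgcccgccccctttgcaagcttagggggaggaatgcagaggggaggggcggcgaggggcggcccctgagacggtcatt
Dnajb6: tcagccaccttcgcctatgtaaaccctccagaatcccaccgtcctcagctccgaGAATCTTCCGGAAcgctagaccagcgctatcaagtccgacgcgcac
Hspd1: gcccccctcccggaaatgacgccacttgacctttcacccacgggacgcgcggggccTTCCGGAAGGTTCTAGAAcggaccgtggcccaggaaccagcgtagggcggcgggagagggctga
The *Hspb1* stretch held 2 separate pairs of triplets, and that of *Hspd1* held 4 triplets in a row. The *Hspd1* element also lies in the window of *Hspe1*, which starts on the other strand, so both chaperonin genes are counted for 1 element. Windows of *Dnajb6* overlap each other, as do those of *Hsp105*. The shares of member windows therefore count some elements more than once. The 3-triplet letters of *Hsp105* lay after its start and are not shown. The endoplasmic reticulum stress element, CCAAT and CCACG spaced by 9 bases, was found for *Hspa5* and *Dnajc3*, in 3.39% of member windows against 0.119% of all.

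A member was tested between the genotypes where at least 1 array detected its probe, which left 51 probes of 38 genes. Probes of 31 genes were detected on all 8 arrays and the remaining 7 on fewer. No probe was detected on any array for 16 genes, which were *Dnaja1*, *Dnajb4*, *Dnajb7*, *Dnajb8*, *Dnajc1*, *Dnajc2*, *Dnajc9*, *Dnajc11*, *Dnajc14*, *Hspa1l*, *Hspa4*, *Hspa5*, *Hspa12a*, *Hspa14*, *Hspb7* and *Hspca*. Among these, *Hspa5* encodes the HSP70 of the endoplasmic reticulum (BiP) and *Hspca* (now *Hsp90aa1*) the inducible HSP90, which are widely expressed, and the undetected probes give no level for them. All values below are normalised signals on the log2 scale, and a difference is *Cd151*-/- minus *Cd151*+/+ on that scale. Levels of different probes cannot be set against each other.

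No heat shock or DNAJ transcript passed the test between *Cd151*-/- and *Cd151*+/+ glomeruli. With limma and Benjamini-Hochberg adjustment over all 14967 tested probes, 0 of the 51 member probes had an adjusted p of 0.05 or lower, against 0.0334% of all tested probes, and their adjusted p-values ran from 0.918 to 0.998. At an unadjusted p of 0.05 limma called 0 of 51 member probes higher (1.69% of all) and 0 lower (2.61% of all). The genotypes overlapped for each of the 51 member probes, where 0.855% of all tested probes lay higher and 1.46% lower in *Cd151*-/- mice with no overlap. The lowest exact permutation p among the members, two-sided over the 70 relabelings, was 0.0571 for *Dnajb5*, and 0.0286 is the smallest that 4 against 4 mice can give. Only 1 array, that of a *Cd151*+/+ mouse, detected *Dnajb5*, so this value mostly ranks signals at background. Positive differences were found for 30 of the 51 probes, against 49.1% of all tested probes.

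By gene, 21 of the 38 tested members lay on average above and 17 below *Cd151*+/+, none past the test. The median difference was 0.06 for the members and -0.01 for all tested probes, and the median size of the difference without its sign was 0.22 and 0.21. The standard error was 0.28 at the median of the members. For 28 of the 38 genes the 95% interval of the difference lay within 1 log2 unit on either side of 0, and for the other 10 it reached further on at least 1 side. Glomeruli hold several cell types, and in such bulk RNA fewer cells of a type and less RNA per cell cannot be told apart.

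**Figure D1:**
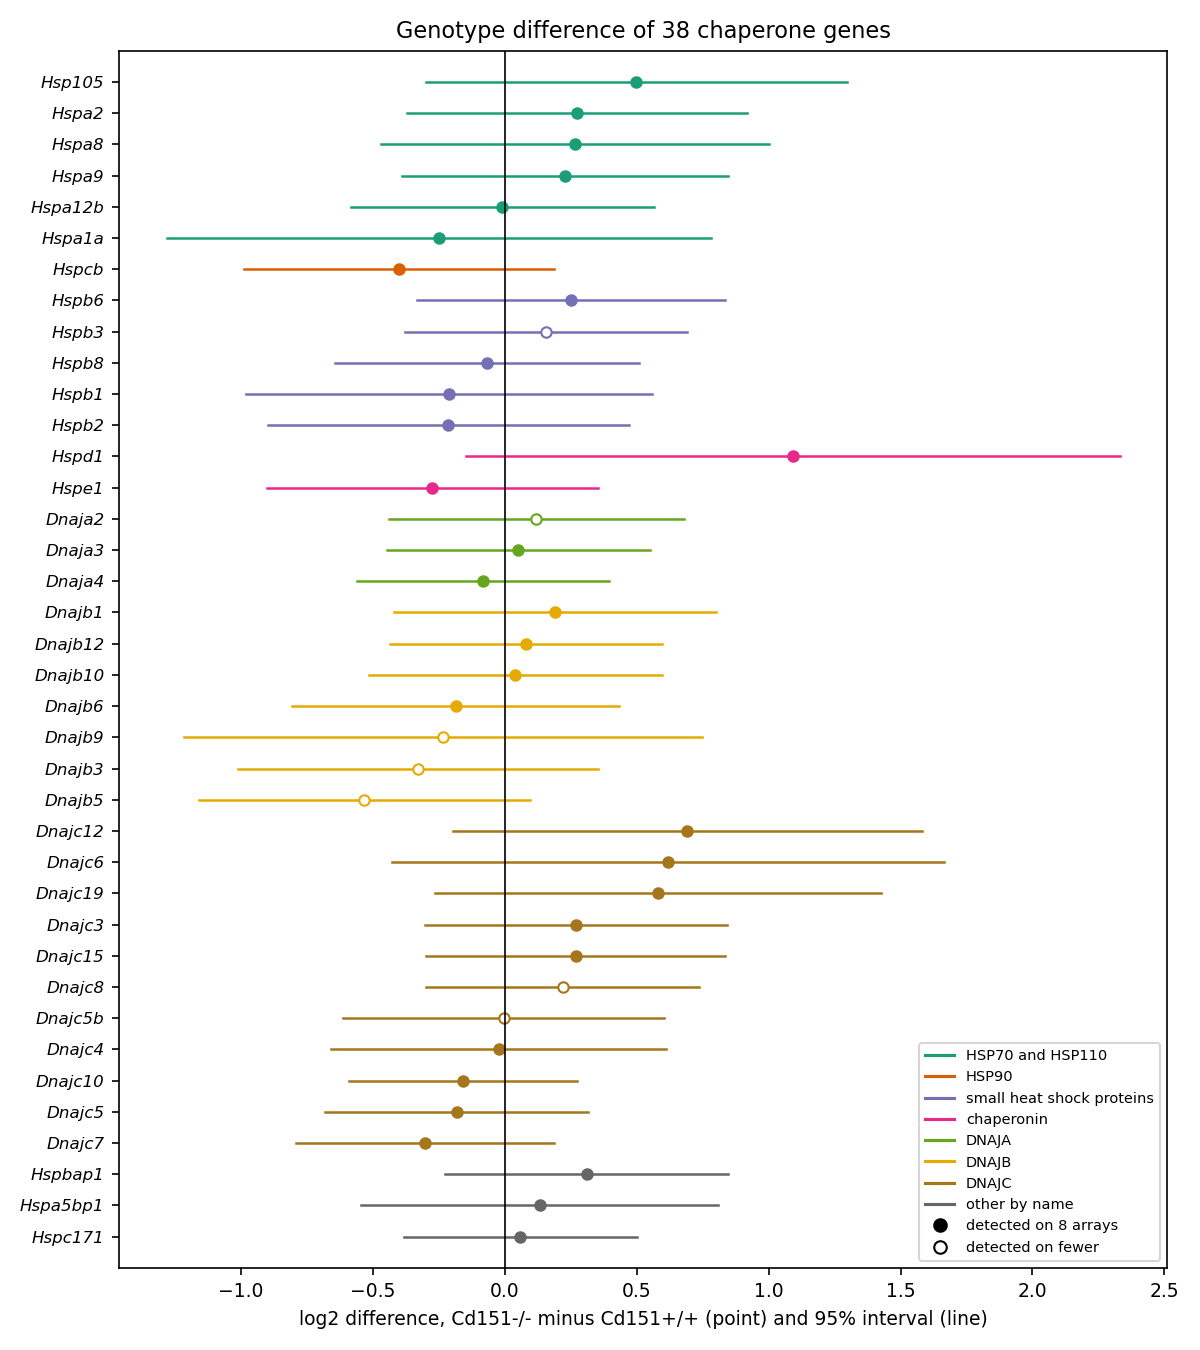
Points give the log2 difference, *Cd151*-/- minus *Cd151*+/+, of the 38 tested genes, 1 probe each, and lines its 95% interval from limma (n = 4 mice per genotype), with colour for the chaperone class and open points for genes detected on fewer than 8 arrays. Differences run from -0.53 for *Dnajb5* to 1.09 for *Hspd1*, and every interval includes 0.

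Of the 11 HSP70 and HSP110 genes 6 were tested, 4 with a higher and 2 with a lower mean in *Cd151*-/- mice and a median difference of 0.25. *Hspa8* encodes the constitutive HSC70, which also strips clathrin from coated vesicles. Its signal was 13.79, 13.33, 14.62 and 14.23 in *Cd151*+/+ mice 1 to 4 and 14.48, 14.79, 13.57 and 14.20 in *Cd151*-/- mice 1 to 4. The genotypes overlapped over most of their range, with *Cd151*+/+ mice 1 and 2 and *Cd151*-/- mouse 3 below the rest, and the difference was 0.27 (SE 0.33, limma, 4 mice per genotype). A second *Hspa8* probe gave -0.04. *Hspa1a*, the strongly stress-inducible HSP70, spread further, with 11.41, 10.24, 9.12 and 9.93 in *Cd151*+/+ mice 1 to 4 and 8.95, 10.35, 9.98 and 10.43 in *Cd151*-/- mice 1 to 4. The highest and the lowest mouse were 5.49-fold apart, with *Cd151*+/+ mouse 1 at the top and *Cd151*-/- mouse 1 at the bottom. The difference was -0.25 (95% interval -1.28 to 0.78) and became 0.16 without *Cd151*+/+ mouse 1 and 0.08 without *Cd151*-/- mouse 1. A near-identical copy of this gene, *Hspa1b*, is not a listed symbol, and the probe may read both.

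*Hsp105*, now *Hsph1*, encodes the HSP110 nucleotide exchange factor whose promoter is printed above, and its signal was 9.50, 8.84, 10.27 and 9.37 in *Cd151*+/+ mice 1 to 4 and 9.77, 10.51, 9.24 and 10.47 in *Cd151*-/- mice 1 to 4. *Cd151*-/- mice 2 and 4 were highest and *Cd151*+/+ mouse 2 lowest, while the remaining 5 mice mixed, and the difference was 0.50 (SE 0.36, exact permutation p = 0.286). *Hspa9*, the mitochondrial HSP70 mortalin, ran at 12.13, 12.03, 12.63 and 13.11 in *Cd151*+/+ mice 1 to 4 and 12.95, 12.72, 12.27 and 12.88 in *Cd151*-/- mice 1 to 4. Its difference of 0.23 was smaller than the SD of 0.50 within *Cd151*+/+ mice, and a second probe gave 0.38. *Hspa2*, an HSP70 best known from spermatogenesis, lay at 10.31, 9.74, 9.79 and 10.03 in *Cd151*+/+ mice 1 to 4 and 10.12, 9.95, 9.84 and 11.08 in *Cd151*-/- mice 1 to 4. *Cd151*-/- mouse 4 stood above the other 7 mice, and the difference of 0.28 was -0.0009 without it. *Hspa12b*, an endothelial relative of HSP70, differed by -0.01, with *Cd151*+/+ mouse 4 and *Cd151*-/- mouse 4 below all others.

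HSP90 was measured through *Hspcb*, now *Hsp90ab1*, the constitutive cytosolic form, whose signal was 13.59, 13.96, 13.22 and 13.13 in *Cd151*+/+ mice 1 to 4 and 12.75, 13.11, 13.59 and 12.86 in *Cd151*-/- mice 1 to 4. *Cd151*+/+ mouse 2 was highest and *Cd151*-/- mouse 1 lowest, and *Cd151*-/- mouse 3 matched *Cd151*+/+ mouse 1, so the genotypes overlapped. The difference was -0.40 (95% interval -0.99 to 0.19, exact permutation p = 0.171). It was not shared by the other *Hspcb* probes, which were also detected on all 8 arrays and differed by 0.04 and 0.07. The sign for this gene therefore depended on the probe.

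Of the 6 small heat shock protein genes 5 were tested, 2 higher and 3 lower on average, with a median difference of -0.07. *Hspb1*, the HSP27 homologue that binds actin in podocytes and smooth muscle, ran at 10.18, 10.52, 11.15 and 10.14 in *Cd151*+/+ mice 1 to 4 and 10.37, 11.15, 10.04 and 9.59 in *Cd151*-/- mice 1 to 4. *Cd151*+/+ mouse 3 and *Cd151*-/- mouse 2 were the highest at the same level and *Cd151*-/- mouse 4 was the lowest, so that the 2.95-fold range was spanned within *Cd151*-/- mice. The difference was -0.21 (SE 0.35), and it was 0.02 without *Cd151*-/- mouse 4 and 0.01 without *Cd151*+/+ mouse 3. *Hspb8*, which works with BAG3 in the disposal of damaged filaments, differed by -0.07 (SE 0.26). The muscle-type members *Hspb2* and *Hspb6* differed by -0.21 and 0.25, again with overlapping mice. *Hspb3* was detected on a single array and differed by 0.16, and no array detected *Hspb7*.

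Of the mitochondrial chaperonin genes, *Hspd1* had the widest range over the 8 mice among the probes given for each gene. It encodes HSP60 and had a signal of 6.19, 6.50, 7.99 and 8.44 in *Cd151*+/+ mice 1 to 4 and 8.95, 9.09, 7.08 and 8.36 in *Cd151*-/- mice 1 to 4. *Cd151*+/+ mice 1 and 2 and *Cd151*-/- mouse 3 were low and the other 5 mice high, a 7.49-fold range, and the genotypes overlapped. The difference was 1.09, or 2.13-fold (SE 0.56, 95% interval -0.15 to 2.33). Its unadjusted limma p of 0.0780 was the lowest among the members, with an adjusted p of 0.918 and an exact permutation p of 0.200. The unadjusted limma p was 0.0238 without *Cd151*+/+ mouse 4 and 0.0148 without *Cd151*-/- mouse 3, with differences of 1.47 and 1.53. The difference fell to 0.73 when *Cd151*+/+ mouse 1 was left out. A second *Hspd1* probe, with 6.64, 6.60, 8.63 and 8.29 in *Cd151*+/+ mice 1 to 4 and 8.76, 7.50, 6.59 and 8.31 in *Cd151*-/- mice 1 to 4, gave a difference of 0.25. *Hspe1*, the HSP10 lid that shares the printed element with *Hspd1*, went the other way in sign, with 6.59, 6.59, 5.91 and 5.72 in *Cd151*+/+ mice 1 to 4 and 5.73, 5.92, 5.59 and 6.47 in *Cd151*-/- mice 1 to 4. Here *Cd151*+/+ mice 1 and 2 and *Cd151*-/- mouse 4 were the high ones, and the difference was -0.27 (SE 0.28).

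**Figure D2:**
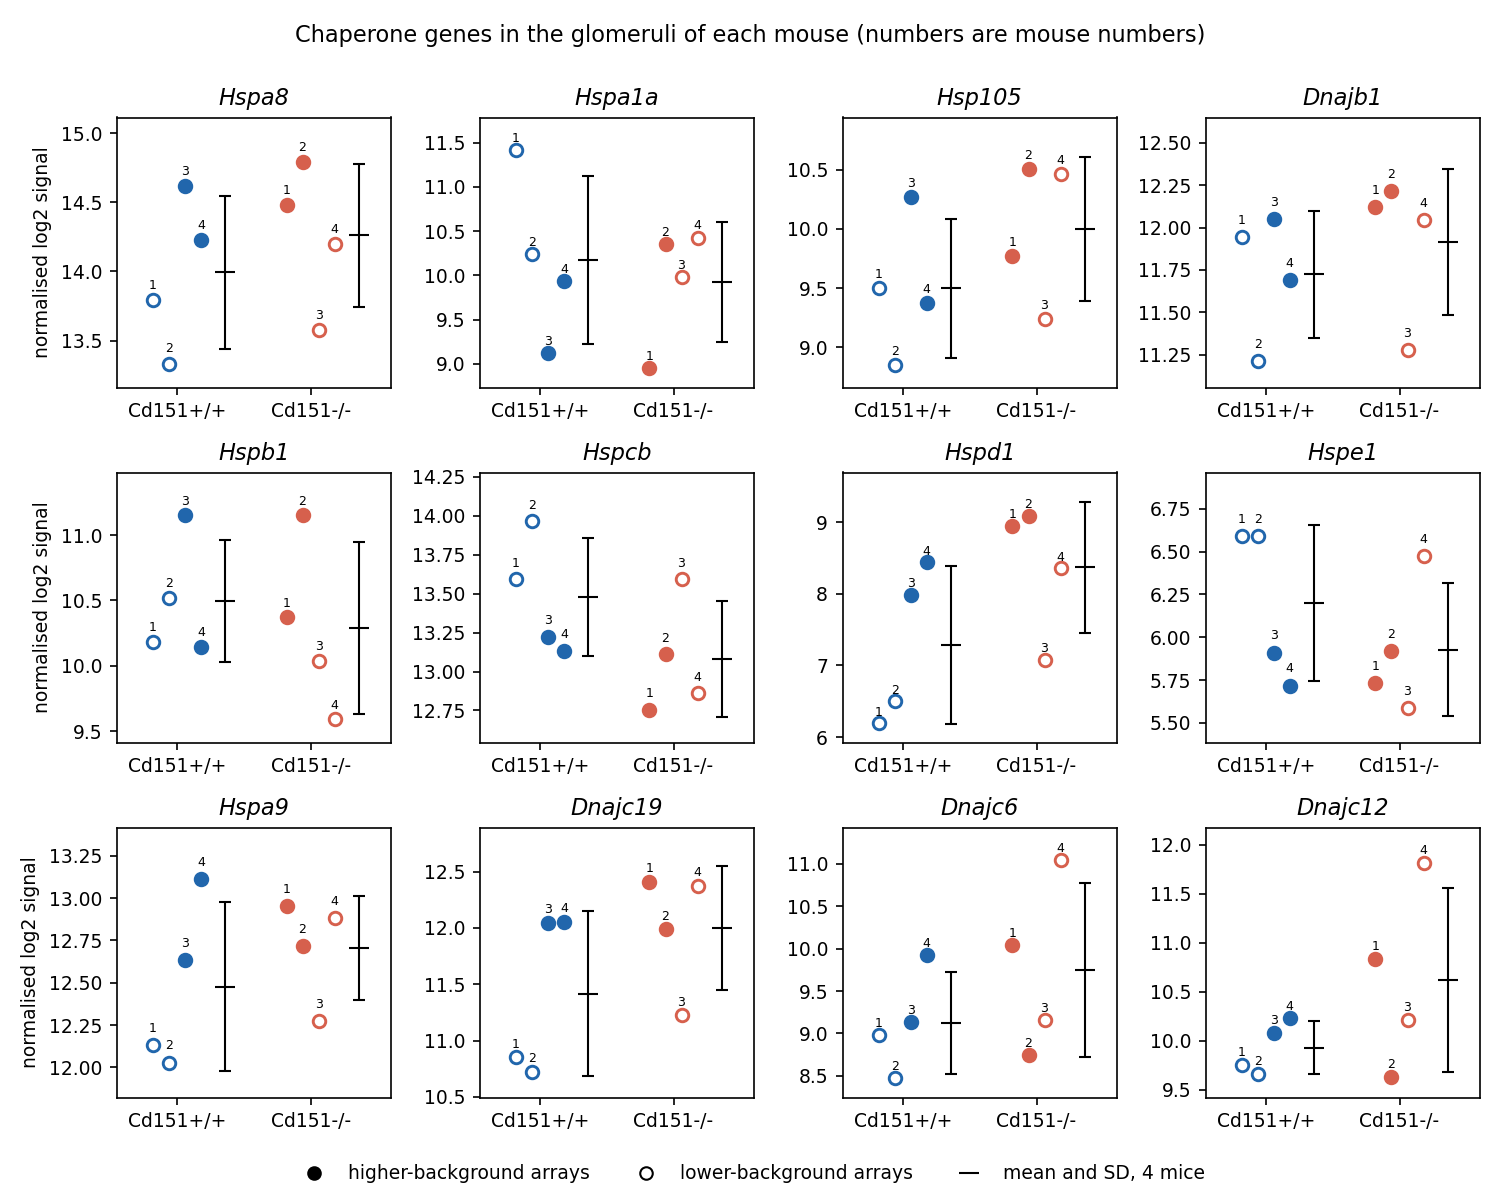
Each panel gives the normalised log2 signal of 1 gene in each mouse, with the mouse number beside the point, filled points for the arrays with the higher background, and a bar for the mean and SD of 4 mice. *Cd151*+/+ and *Cd151*-/- mice overlap in all 12 panels, and in the *Hspd1* panel the signals run from 6.19 to 9.09.

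Among the DNAJA genes, which are closest to the bacterial DnaJ, 3 of 4 were tested, with differences from -0.08 to 0.12. *Dnaja3*, the mitochondrial form, differed by 0.05 (SE 0.23) and *Dnaja4* by -0.08, while *Dnaja2* was detected on 2 arrays only. Of the 10 DNAJB genes 7 were tested, 3 higher and 4 lower on average with a median of -0.19. *Dnajb1*, the stress-inducible HSP40 that partners HSPA8, ran at 11.95, 11.21, 12.05 and 11.69 in *Cd151*+/+ mice 1 to 4 and 12.12, 12.21, 11.28 and 12.04 in *Cd151*-/- mice 1 to 4. *Cd151*+/+ mouse 2 and *Cd151*-/- mouse 3 were the low ones, and the difference was 0.19 (SE 0.28). *Dnajb6*, which suppresses polyglutamine aggregation and carries the printed 3-triplet element, ran at 9.07, 9.39, 10.25 and 9.57 in *Cd151*+/+ mice 1 to 4 and 9.79, 9.28, 9.06 and 9.42 in *Cd151*-/- mice 1 to 4. *Cd151*+/+ mouse 3 was the highest and the other 7 mixed, and the difference was -0.19 (SE 0.28). *Dnajb9*, an endoplasmic reticulum DNAJ that binds BiP, was detected in 4 *Cd151*+/+ and 3 *Cd151*-/- mice and differed by -0.23 with the widest SD of the DNAJB genes, 1.04 within *Cd151*-/- mice. *Dnajb5* had the most negative difference of all members, -0.53, but was detected in 1 mouse only, *Cd151*+/+ mouse 1 at 5.98, with the other 7 between 4.42 and 5.00. The DNAJB genes left were *Dnajb10* at 0.04, *Dnajb12*, a membrane protein of the endoplasmic reticulum, at 0.08, and *Dnajb3*, which 1 array detected, at -0.33.

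The DNAJC genes, which share only the J domain, included 11 tested of 16, 6 higher and 5 lower on average with a median of 0.22. *Dnajc6* encodes auxilin, which recruits HSPA8 to clathrin-coated vesicles. Its signal was 8.98, 8.47, 9.13 and 9.92 in *Cd151*+/+ mice 1 to 4 and 10.04, 8.75, 9.15 and 11.05 in *Cd151*-/- mice 1 to 4. *Cd151*-/- mouse 4 was highest, 5.96-fold above *Cd151*+/+ mouse 2, and the difference of 0.62 (SE 0.47) was 0.19 without *Cd151*-/- mouse 4. A second probe gave 1.11. *Dnajc12*, a co-chaperone of the aromatic amino acid hydroxylases, ran at 9.75, 9.66, 10.08 and 10.23 in *Cd151*+/+ mice 1 to 4 and 10.84, 9.63, 10.21 and 11.82 in *Cd151*-/- mice 1 to 4. *Cd151*-/- mice 1 and 4 lay above the other 6, and *Cd151*-/- mouse 2 was the lowest of all. Its difference of 0.69 (SE 0.40, exact permutation p = 0.257) was 0.29 without *Cd151*-/- mouse 4 and 1.03 without *Cd151*-/- mouse 2, where the unadjusted limma p was 0.0164.

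*Dnajc19*, a partner of the import motor at the inner mitochondrial membrane, ran at 10.85, 10.72, 12.04 and 12.05 in *Cd151*+/+ mice 1 to 4 and 12.41, 11.99, 11.22 and 12.37 in *Cd151*-/- mice 1 to 4. *Cd151*+/+ mice 1 and 2 and *Cd151*-/- mouse 3 were the low ones, as for *Hspd1*. The difference was 0.58 (SE 0.38), and its unadjusted limma p was 0.0491 without *Cd151*-/- mouse 3, with a difference of 0.84. It fell to 0.35 when *Cd151*+/+ mouse 2 was left out, at an unadjusted limma p of 0.394. A second probe detected on all 8 arrays gave 0.33, and another, detected on 1 array, gave -0.02. *Dnajc3*, an inhibitor of the stress kinase PERK whose window holds the endoplasmic reticulum stress element, differed by 0.27 (SE 0.26). *Dnajc10*, a disulfide reductase of the same compartment, was the steadiest gene of all, with a 1.35-fold range over 8 mice and a difference of -0.16 (SE 0.20). *Dnajc7*, which links HSP70 with HSP90, differed by -0.30, and *Dnajc5*, the cysteine string protein of secretory vesicles, by -0.18. Differences of the other tested DNAJC genes were 0.27 for *Dnajc15*, a mitochondrial inner membrane protein, 0.22 for *Dnajc8*, a splicing-related protein detected on 5 arrays, -0.02 for *Dnajc4* and -0.0037 for *Dnajc5b*. The genes that fitted the symbols without being classical chaperones gave 0.31 for *Hspbap1*, 0.13 for *Hspa5bp1* and 0.06 for *Hspc171*.

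The spread between mice of 1 genotype was close to that of other transcripts. Over the 31 genes detected on all 8 arrays, the residual SD within genotypes was 0.40 at the median, against 0.38 for the 9495 probes detected on all 8 arrays. A total of 16 genes lay above that value and 15 below. The 10% of the 9495 probes with the largest SD, those above 0.73, took in 4 of 40 member probes. These were both *Hspd1* probes and the probes of *Dnajc6* and *Hspa1a*. Residual SD was 1.01 for *Hspd1*, 0.84 for *Dnajc6* and 0.82 for *Hspa1a*, while *Dnajc10* had 0.15 and *Hspc171* 0.17. Among the tested members known as HSF1 targets, the range over 8 mice went from 1.74-fold for *Hspb8* to 7.49-fold for *Hspd1*. *Hspa1a* varied 5.49-fold and *Hspa8* 2.75-fold.

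The larger SD fell to each genotype about equally often. It was larger in *Cd151*-/- mice for 15 of the 31 genes and in *Cd151*+/+ mice for 16, and by probe it was larger in *Cd151*-/- mice for 17 of 40, against 56.4% of the 9495 probes. The median SD was 0.40 within *Cd151*+/+ and 0.37 within *Cd151*-/- mice, and 0.35 and 0.39 over all 9495 probes. *Dnajc12* and *Dnajc6* had the widest gaps towards *Cd151*-/-, 0.94 against 0.27 and 1.02 against 0.60, and *Hspbap1* spread more in *Cd151*+/+, 0.43 against 0.10. These SDs are given as a description of 4 mice each, without a test.

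**Figure D3:**
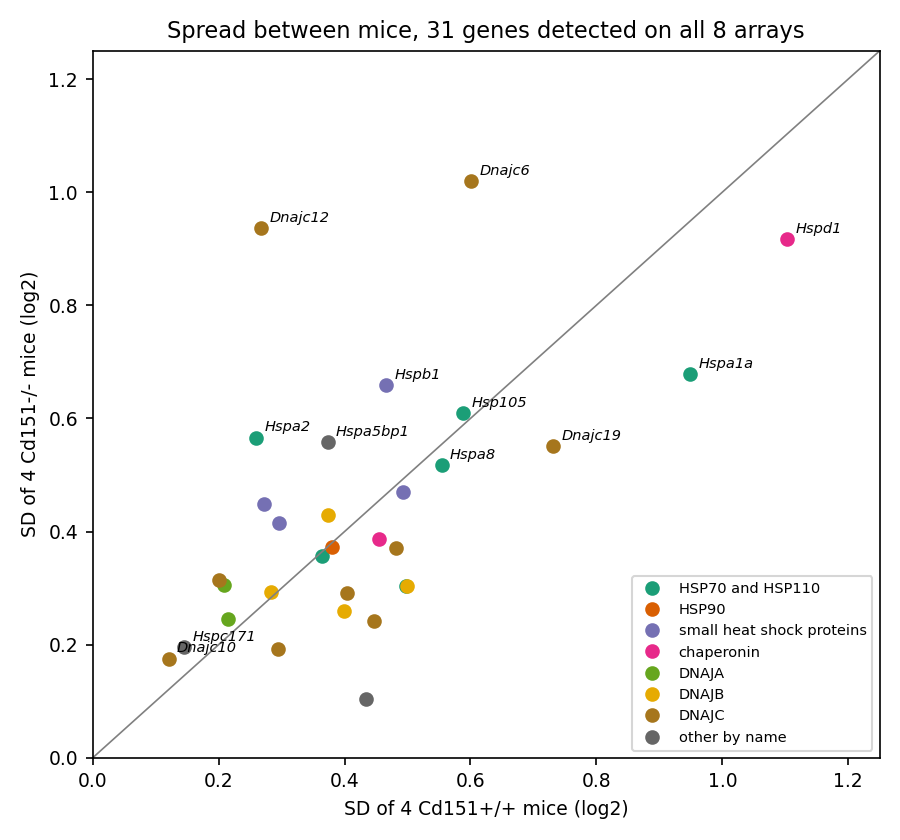
Each point is 1 of the 31 genes detected on all 8 arrays, with the SD of its log2 signal over 4 *Cd151*+/+ mice on the horizontal axis and over 4 *Cd151*-/- mice on the vertical axis, coloured by chaperone class, and the line marks equal SD. There are 15 genes above the line and 16 below it, with *Hspd1*, *Dnajc6*, *Dnajc12* and *Hspa1a* far from the origin.

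The mice that stood out differed from gene to gene. *Cd151*-/- mouse 2 was the highest of 8 for 7 of the 31 genes, among them *Hspa8*, *Hsp105*, *Hspb1*, *Hspb8*, *Dnajb1* and *Hspd1*, and *Cd151*+/+ mouse 2 was the lowest for 9, among them *Hspa8*, *Hspa9*, *Hsp105* and *Dnajb1*. *Cd151*-/- mouse 4 was highest for 6 genes, which were *Dnaja3*, *Dnajb12*, *Dnajc6*, *Dnajc12*, *Hspa2* and *Hspc171*. *Cd151*-/- mouse 1 was lowest for 7, including *Hspa1a* and *Hspcb*. *Cd151*-/- mice 1 and 2 were on higher-background arrays, described below, and *Cd151*+/+ mouse 2 and *Cd151*-/- mouse 4 on lower-background ones. How often each mouse was highest or lowest over all probes was not counted. These counts therefore cannot be read as particular to the chaperones. Over the 9 tested members known as HSF1 targets (*Hspa1a*, *Hspa8*, *Hsp105*, *Hspcb*, *Hspb1*, *Hspb8*, *Hspd1*, *Hspe1* and *Dnajb1*), the mean deviation from each gene's average was highest in *Cd151*-/- mouse 2, at 0.47, and lowest in *Cd151*-/- mouse 3, at -0.30, with *Cd151*+/+ mice between -0.22 and 0.12. Both ends of the range were thus *Cd151*-/- mice, 4 of the 9 genes had a positive and 5 a negative difference, and the median difference was -0.07.

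Over the 7 tested mitochondrial members (*Hspd1*, *Hspe1*, *Hspa9*, *Dnaja3*, *Dnajc4*, *Dnajc15* and *Dnajc19*) the mean deviation was -0.42, -0.47, 0.09 and 0.26 in *Cd151*+/+ mice 1 to 4 and 0.39, 0.24, -0.40 and 0.32 in *Cd151*-/- mice 1 to 4. *Cd151*+/+ mice 1 and 2 and *Cd151*-/- mouse 3 were low and the rest high, with 5 genes positive between the genotypes, 2 negative, a median of 0.23 and none past the test. The 4 tested members of the endoplasmic reticulum (*Dnajb9*, *Dnajb12*, *Dnajc3* and *Dnajc10*) had a median of -0.04, with 2 in each direction.

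**Figure D4:**
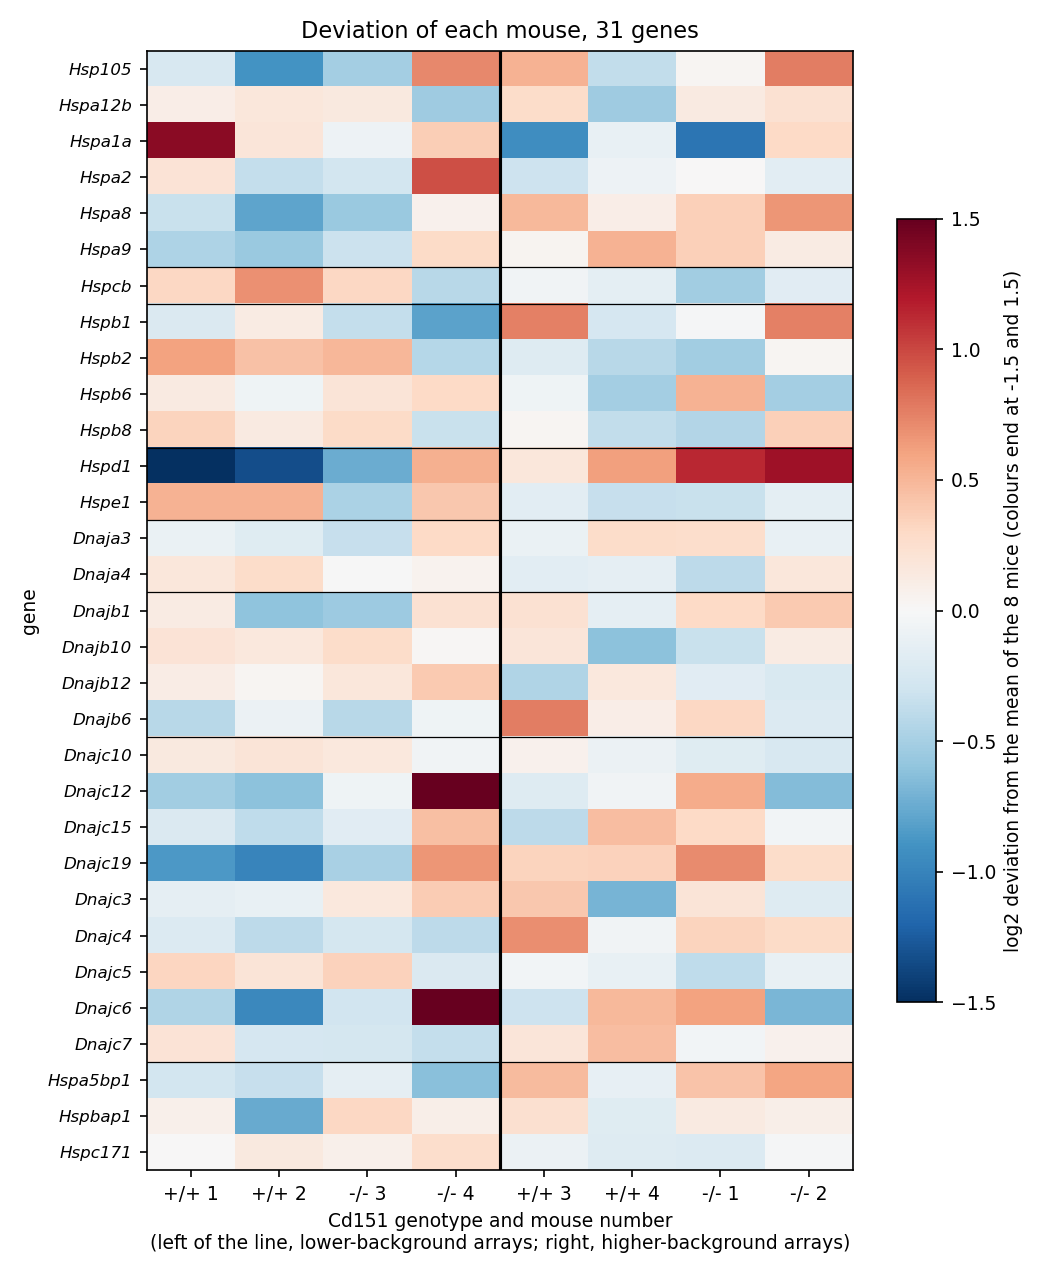
Colours give the deviation of each mouse from the 8-mouse mean of the gene, in log2 units and cut at -1.5 and 1.5, for the 31 genes detected on all 8 arrays, with the 4 lower-background arrays left of the line and the 4 higher-background arrays right of it. *Hspd1* is low in *Cd151*+/+ mice 1 and 2 and *Cd151*-/- mouse 3, and *Dnajc6* and *Dnajc12* are high in *Cd151*-/- mouse 4.

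Technical and tissue differences between the arrays moved with some of these values. The inferred background was 123 to 135 signal units on 4 arrays, those of mice 3 and 4 of *Cd151*+/+ and of mice 1 and 2 of *Cd151*-/-. It was 59.0 to 69.5 on the other 4 arrays, and this split is not a label of the study. Between the sets, 6 of 40 member probes detected on all 8 arrays were higher on the high-background arrays with no overlap (13.6% of all 9495) and 1 was lower (14.1%). The 6 were probes of *Dnajb6*, *Dnajc4*, *Hspa5bp1*, *Hspa8* and *Hspcb*, 2 of them for *Hspcb*, and the lower one was that of *Hspc171*. For *Hspcb* the sets differed by 0.80 and 0.72 with the dimmer probes and by -0.45 with the brightest. *Hspd1* was 1.59 higher on the high-background arrays, while the set difference of *Hspa1a*, high minus low, was -0.92. Within the low-background set the genotype difference of *Hspd1* was 1.38 and within the other 0.81, with 2 mice per genotype in each.

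With 2 mice per genotype in each set, using the array set as a block in limma cannot change a difference, only its error. For the difference of 1.09 of *Hspd1* the unadjusted limma p was then 0.00322 and the adjusted p 0.349. For the 0.25 of its second probe the adjusted p was 0.808. The brightest *Hspd1* probe was then the 1 member probe of 51 called higher (5.21% of all tested probes). In the same fit 0 were called lower (6.08%), and 0 passed Benjamini-Hochberg adjustment (0.0535%). Within the sets, *Dnajc6* differed by 1.37 on the low-background arrays and -0.13 on the others, and *Dnajc12* by 1.31 and 0.08, so these values rested on the set that holds *Cd151*-/- mouse 4.

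Markers of the proximal tubule, which the glomerular isolates should hold little of, were detected for 6 of 6 genes on the array, with a summed normalised signal of 16010 to 46250 in *Cd151*+/+ mice and 27370 to 50380 in *Cd151*-/- mice. All 6 had higher means in *Cd151*-/- mice, with a median difference of 0.53. At an unadjusted limma p of 0.05, 1 of them was higher (1.69% of all tested probes). Their mean deviation was -1.01, -0.56, -0.09 and 0.24 in *Cd151*+/+ mice 1 to 4 and 0.59, -0.19, -0.15 and 1.19 in *Cd151*-/- mice 1 to 4. *Cd151*+/+ mouse 1 was thus lowest and *Cd151*-/- mouse 4 highest, the mouse that was also highest for *Dnajc6*, *Dnajc12* and *Hspa2*. The low end did not match. *Cd151*+/+ mouse 2 was lowest for *Dnajc6* and *Hspa2*, and *Cd151*-/- mouse 2 for *Dnajc12*. Markers of the loop and distal tubule had their lowest mean deviation in *Cd151*-/- mouse 4, at -0.60. The part of tubular RNA in these values was not tested. Podocyte markers were detected for 5 of 6 genes and endothelial markers for 8 of 8, with sums of 101800 to 108700 and 34900 to 44400 in *Cd151*+/+ mice and 87250 to 110600 and 22850 to 44210 in *Cd151*-/- mice. None of these 13 genes passed an unadjusted p of 0.05, with 5 of 5 and 7 of 8 lower on average.

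The wider stress pathways held no transcript past Benjamini-Hochberg adjustment. Of 33 listed genes for the heat shock factors and cytosolic co-chaperones, 23 were tested, with 13 higher and 10 lower on average, 0 at an unadjusted limma p of 0.05 in either direction and a median of 0.03. The chaperones and sensors of the endoplasmic reticulum gave 10 higher and 6 lower of 16 tested, again 0 at that level, and a median of 0.04. Mitochondrial protein quality control gave 7 higher and 2 lower of 9 tested, with 0 called and a median of 0.07. Immediate early genes, which are induced within minutes by stress and by tissue digestion, had 12 of 15 tested genes lower on average and a median of -0.68. At an unadjusted limma p of 0.05, 4 of them were lower (2.61% of all tested probes), and 0 passed adjustment. The 4, named here after their values were seen, were *Jun*, *Junb*, *Jund1* and *Zfp36*. *Jund1* was lower in all 4 *Cd151*-/- mice than in any *Cd151*+/+ mouse (1.46% of all probes), with a difference of -1.09 and an adjusted limma p of 0.905. The mean deviation of the immediate early genes was 0.38, 0.13, 0.11 and 0.54 in *Cd151*+/+ mice 1 to 4. In *Cd151*-/- mice 1 to 4 it was -0.15, 0.63, -0.45 and -1.19. For the HSF1 targets the values were 0.03, -0.22, 0.12 and -0.11 in *Cd151*+/+ mice and -0.07, 0.47, -0.30 and 0.09 in *Cd151*-/- mice. Both were highest in *Cd151*-/- mouse 2, while *Cd151*-/- mouse 4, lowest for the immediate early genes, was not low for the HSF1 targets. Whether handling of single mice had a part in the chaperone values was not tested.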

How the data were processed

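RNA from the glomeruli of 4 *Cd151*+/+ and 4 *Cd151*-/- mice was amplified, biotin-labelled and read by the authors on 8 arrays. The authors deposited signal intensity per probe, neither background-corrected nor normalised, with a detection p-value in steps of 1 over 798. Per the labels, GenomeStudio was used upstream. In R 4.3.3, limma 3.58.1 took the background of an array from its detection p-values, then applied neqc (normexp correction, offset 16, quantile normalisation), lmFit and eBayes. Tested probes reached a detection p of 0.05 or less on any array. The pipeline was tested on simulated data. Exact permutation tests were two-sided. Median signal was 65.7 to 164 and 11291 to 12359 probes were detected per array, so brightness and the number of arrays limit precision, most for probes near background.

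The members, the lists and the split of arrays by background were chosen with earlier results of these data known. Textbook members were named by role whatever their values, together with any member past a threshold or among the 10% most variable probes. Of the symbols 48 matched RefSeq directly and 6 by synonym, and probe sequences were not used here. Alternatives changed the background correction, normalisation, offset, filter, blocks, variance model, array weights and mice.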

Additional observations from a re-analysis of the deposited data

Results flagged for a closer look

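In 4 of the 76 sets of 4 mice examined (38 genes in each genotype), 1 mouse stood apart from the other 3 by a gap above Dixon's critical value at the 95% level, where chance gives about 1 in 20. *Dnajb10* (now *Dnajb2*), a neuronal co-chaperone of the proteasome pathway, had a signal of 10.64 in *Cd151*+/+ mouse 4, with the nearest mouse of that genotype at 11.41. *Hspa12b* had 8.46 in *Cd151*-/- mouse 4, the nearest being 9.14. *Dnajc5b* had 5.78 in *Cd151*-/- mouse 4, the nearest being 4.99, and was detected in 1 mouse of each genotype. *Hspb3* had 5.58 in *Cd151*+/+ mouse 2, the nearest being 4.82, and was detected in 1 *Cd151*+/+ and 0 *Cd151*-/- mice.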

How the results depend on the processing

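The count of members past Benjamini-Hochberg adjustment was 0 under all alternatives tried. Of 675 alternative values of single genes 630 had the same direction, for 20 of 38 genes under every alternative. The blocks, variance model and detection filter cannot alter a difference, so their part of the 630 was fixed in advance. Of the 45 values that turned, 32 came from leaving out a mouse. Members at an unadjusted limma p of 0.05 numbered 0 in each direction. Without the detection filter 1 was higher (1.68% of all probes), a probe of *Dnajc11*, which no array detected. With the array set as a block 1 was higher (5.21%), that of *Hspd1*. With array weights 8 were higher and 4 lower, where 15.6% and 16.6% of all tested probes passed. Array weights also turned *Dnajb10* to -0.20, *Dnajb12* to -0.12, *Dnajb6* to 0.15, *Dnajb9* to 0.26, *Dnajc4* to 0.35, *Hspa12b* to 0.030, *Hspb1* to 0.046, *Hspb3* to -0.063 and *Hspc171* to -0.11. Cubic spline normalisation turned *Dnajc5b* to 0.0007, and scaling to the 75th percentile, which moved the median of all tested probes to -0.07, turned *Dnajc8* to -0.030, *Hspa12b* to 0.0042 and *Hspb3* to -0.020. The cause was not tested. Leaving out 1 mouse at a time gave 0 to 3 members higher, 0 to 1 lower and medians of 0.03 to 0.11. Without *Cd151*-/- mouse 3 the 3 higher (4.25% of all tested probes) were *Dnajc19*, *Hspd1* and a second probe of *Dnajc6*. The last 2 were also higher without *Cd151*+/+ mouse 4 (2.93%), and *Dnajc12* without *Cd151*-/- mouse 2 (2.92%). Without *Cd151*+/+ mouse 1 a second probe of *Dnajc10*, detected in 3 *Cd151*+/+ and 0 *Cd151*-/- mice, was lower (1.32%). Ranges of genes that changed sign were *Dnaja2* -0.0057 to 0.31, *Dnaja3* -0.0367 to 0.17 and *Dnaja4* -0.15 to 0.0335. For DNAJB they were *Dnajb10* -0.16 to 0.16, *Dnajb12* -0.0592 to 0.17, *Dnajb6* -0.35 to 0.0419 and *Dnajb9* -0.56 to 0.22. For DNAJC they were *Dnajc4* -0.16 to 0.21 and *Dnajc5b* -0.22 to 0.19. The rest were *Hspa12b* -0.19 to 0.17, *Hspa1a* -0.60 to 0.16, *Hspa2* -0.0009 to 0.41 and *Hspa5bp1* -0.0454 to 0.36. To these came *Hspb1* -0.50 to 0.0212, *Hspb8* -0.20 to 0.0695 and *Hspc171* -0.0176 to 0.14. Correlations of deviations between mice of the same number were -0.58 to -0.01. Each such pair joins a lower-background and a higher-background array, so these correlations cannot show whether the numbers pair the samples. With the replicate number as a block 0 members were higher (1.37% of all tested probes) and 0 lower (1.44%). Probes near background and 4 mice per genotype limit what could be seen.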

Other observations

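Markers of other cells that the isolates could hold gave further values. Of the 6 tested leukocyte genes 3 were higher and 3 lower on average in *Cd151*-/- mice with a median difference of -0.06, and of the 5 tested mesangial and smooth muscle genes 2 were higher and 3 lower with a median of -0.35. Of these 5, 1 passed an unadjusted limma p of 0.05 in each direction (1.69% of all tested probes higher and 2.61% lower). Of the 4 tested loop and distal tubule genes 1 was higher and 3 lower, with a median of -0.33 and 0 at that level. All 3 tested erythroid genes were lower on average, 2 of them at an unadjusted limma p of 0.05 (2.61% of all tested probes). The genotypes overlapped for each of the 3. Their summed normalised signal was 37370 to 49550 in *Cd151*+/+ mice and 17550 to 37210 in *Cd151*-/- mice. For *Hba-a1*, the brightest of them, *Cd151*-/- mouse 3 at 15.18 lay above *Cd151*+/+ mouse 4 at 15.14. None of these genes passed Benjamini-Hochberg adjustment.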
